A study of Mus musculus with 8 samples.

Results

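Chemokines are small secreted proteins that guide leukocytes through tissue, and chemokine receptors are the membrane proteins on the responding cells that read them. The genes described here are those whose mouse symbol is Ccl, Cxcl, Cx3cl, Xcl, Ccr, Cxcr, Cx3cr, Xcr or Ackr followed by digits only. They came to 54 genes, 33 ligands and 21 receptors, of 22180 named genes on the array. Classical receptors couple to inhibitory G proteins and drive cell migration, while the atypical receptors (Ackr) bind ligands without that coupling and mostly remove or relocate them. In white fat, the ligands of Ccr2 are known for drawing monocytes into the tissue as obesity develops, and glucocorticoids are known for repressing many chemokine genes that depend on the transcription factor NF-kB.

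Epididymal adipose tissue, the white fat pad beside the epididymis, was taken from 8 male C57BL/6 mice, and total RNA from each left pad was hybridised to 1 Affymetrix whole-transcript array (Mouse Gene 2.0 ST). All 8 mice were weaned at 3 weeks of age onto a high-fat diet whose fat, mainly of the n-6 series, gave 45% of its energy, so neither group represents lean or chow-fed mice. From 6 weeks of age, 4 mice (GC+) took the synthetic glucocorticoid prednisolone daily in sweet potato puree, at a dose the labels give as 40 mg per kg per square metre, and 4 mice (GC-, vehicle) took the puree alone. Treatment lasted 4 weeks, to an age of 10 weeks. The question was how chronic glucocorticoid changes transcripts of this depot under this diet. Mice carry the replicate numbers of the labels.

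Values are log2 RMA expression values, and a difference is the prednisolone mean minus the vehicle mean on that scale, given ± its standard error from the limma model (n = 4 per group). Each of the 54 genes had 1 probe set, so no choice between probe sets was made. Of these, 38 genes, 26 ligands and 12 receptors, averaged above 5.82, the level below which the dimmest 33.3% of all genes lay. The other 16 genes, 7 ligands and 9 receptors, are called dim here, and all 54 stayed in the test. Array medians lay between 6.09 and 6.13. RNA of the epididymis differed strongly between pads in both groups. The mean deviation of 13 epididymis markers from their 8-array means was high on 3 arrays, those of vehicle mouse 1 (3.17), prednisolone mouse 2 (2.52) and vehicle mouse 4 (2.13). It was 0.19 in prednisolone mouse 1 and between -2.30 and -1.27 in the other 4. For the 29 genes followed across alternative fits, the difference is also given without the 3 highest arrays, from a fit that leaves 3 prednisolone and 2 vehicle mice. Adipocyte markers were present in every pad, and all 8 listed genes, Adipoq and Plin1 among them, lay above the dim level.

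No chemokine gene passed an adjusted p of 0.05 between the groups, and 0 of all 22180 genes (0.0%) did so with limma. The lowest adjusted p among the chemokine genes was 0.791. The largest differences were higher values of the monocyte chemoattractants Ccl7 and Ccl2, of the macrophage inflammatory protein Ccl3 and of its receptor Ccr1 in prednisolone mice. At an unadjusted p under 0.05 stood 7 of the 54 genes (13.0%), against 5.61% of all genes, and 0 stood under 0.01. The 7 comprised 6 genes with higher means in prednisolone mice, where 3.51% of all genes stood, and 1 with a lower mean, where 2.1% stood. The number of chemokine genes under 0.05 was 4 without prednisolone mouse 1, vehicle mouse 1 or vehicle mouse 4. In those fits 4.37%, 4.22% and 3.22% of all genes stood there. It was 2 without the 3 arrays of high epididymis score, when 3.81% of all genes stood under 0.05. These 2 were Cxcr2, lower with prednisolone (limma unadjusted p = 0.0063), and Ackr2, higher (0.0424), both with an adjusted p of 0.965. Ackr2 was not among the 7. The 6 genes with higher means kept that direction there, with limma unadjusted p from 0.0642 (Ccl26) to 0.208 (Ccl3).

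Ligands and receptors leaned the same way by similar shares. Means were higher with prednisolone for 24 of 33 ligands (72.7%) and 15 of 21 receptors (71.4%), against 56.4% of all genes. The median difference was 0.10 over ligands and 0.07 over receptors, against 0.02 over all genes. CC ligands (Ccl) were higher for 15 of 18 genes with a median of 0.22, and CXC ligands (Cxcl) for 9 of 13 with a median of 0.05. Among genes above the dim level, 17 of 26 ligands (65.4%) and 8 of 12 receptors (66.7%) were higher, against 54.6% of all genes above that level. Their median differences were 0.05 and 0.09, against 0.02. The groups did not overlap for 2 ligands, both higher with prednisolone, and 0 receptors. That is 3.7% of the 54 genes against 3.25% of all genes (1.99% higher and 1.25% lower), a share near the background. Over fits without 1 mouse the ligand median ran from 0.03 (vehicle mouse 1 left out) to 0.20 (prednisolone mouse 3 left out), and it was 0.04 without the 3 arrays of high epididymis score.

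**Figure D1:**
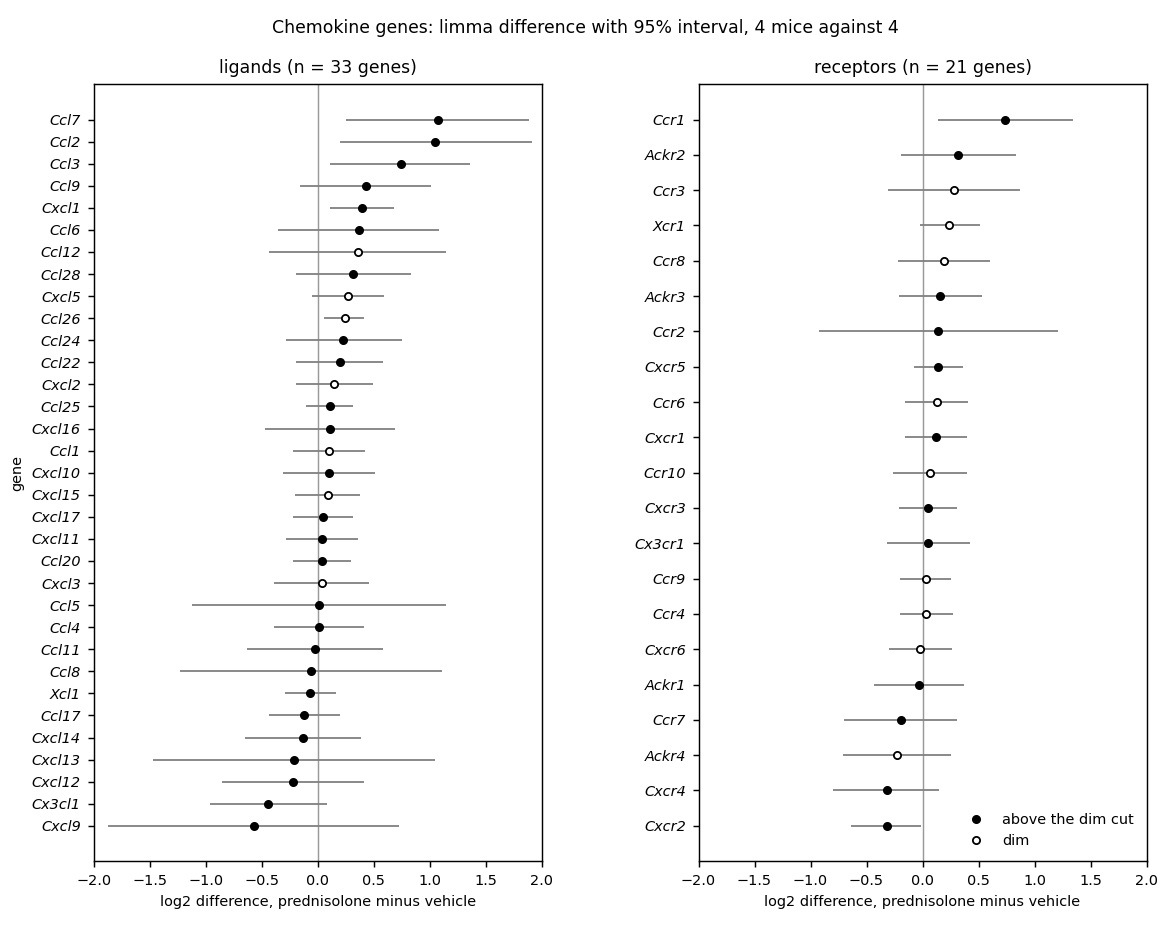
Limma difference (prednisolone minus vehicle, log2 scale) of each of the 33 ligands and 21 receptors, with its 95% interval; filled points lie above the dim level and open points below it. Intervals of Ccl7, Ccl2, Ccl3, Cxcl1, Ccl26 and Ccr1 lie above 0 and that of Cxcr2 below 0 before any adjustment over genes.

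The ligands grouped here with Ccr2, the receptor that releases and recruits inflammatory monocytes, did not differ alike. Ccl2 (MCP-1) read 9.59, 8.53, 8.94 and 8.02 in prednisolone mice 1 to 4 and 7.60, 8.22, 8.12 and 6.93 in vehicle mice 1 to 4. Mouse 1 of the prednisolone group was highest and mouse 4 of the vehicle group lowest, and 3 of 4 prednisolone mice lay above every vehicle mouse. The means of 8.77 ± 0.66 and 7.72 ± 0.59 (SD, n = 4 each) differed by 1.05 ± 0.38, a 2.08-fold ratio (limma unadjusted p = 0.0215, adjusted p = 0.791). Without the 3 arrays of high epididymis score the Ccl2 difference was 0.68 ± 0.42.

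Ccl7 (MCP-3), its close relative, read 8.95, 7.76, 8.04 and 7.55 in prednisolone mice and 7.15, 7.59, 7.07 and 6.20 in vehicle mice. The same prednisolone mouse was highest and the same vehicle mouse lowest, and again 3 of 4 prednisolone mice lay above the vehicle range. The Ccl7 difference was 1.07 ± 0.36, a 2.10-fold ratio (limma unadjusted p = 0.0164, adjusted p = 0.791), and 0.85 ± 0.40 without the 3 arrays of high epididymis score. In fits without 1 mouse the Ccl2 difference ran from 0.78 (prednisolone mouse 1 left out) to 1.31 (prednisolone mouse 4 left out), and that of Ccl7 from 0.78 to 1.27.

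Ccl8 (MCP-2) was placed in this group by the list used here, and whether mouse Ccl8 acts through Ccr2 was not tested. It read 8.14, 7.41, 5.98 and 7.30 in prednisolone mice against 7.00, 7.13, 8.44 and 6.49 in vehicle mice. Its groups covered each other, and the difference of -0.06 ± 0.51 had a 95% interval from -1.23 to 1.11. Its sign turned to 0.35 without prednisolone mouse 3, 0.33 without vehicle mouse 3 and 0.32 with array weights, and it was -0.65 ± 0.66 without the 3 arrays of high epididymis score. The dim gene Ccl12 (MCP-5) differed by 0.36 ± 0.35, which was 0.07 without prednisolone mouse 1, 0.60 without vehicle mouse 3 and 0.03 without the 3 arrays of high epididymis score. Ccr2 itself read 9.51, 8.32, 7.08 and 8.54 in prednisolone mice and 7.87, 8.37, 8.82 and 7.80 in vehicle mice. Both the highest and the lowest of the 8 values of this receptor were in prednisolone mice, and the difference was 0.14 ± 0.47 (95% interval -0.92 to 1.21). Its sign turned to -0.24 without prednisolone mouse 1 and -0.22 without the 3 arrays of high epididymis score.

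**Figure D2:**
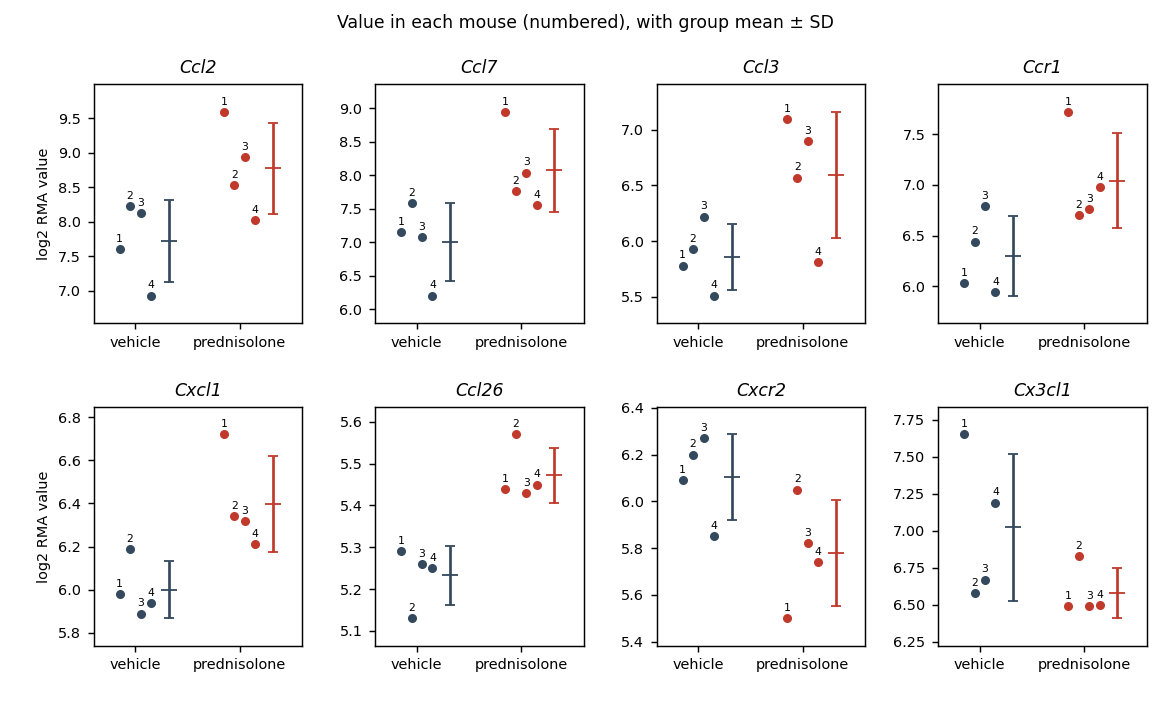
Log2 RMA value of 8 chemokine genes in each mouse (points, numbered by replicate), with group mean and SD beside them; vertical axes do not start at 0 and differ between panels. The groups are apart only for Cxcl1 and Ccl26 among these 8 genes.

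Among the ligands of Ccr1, which monocytes, macrophages and neutrophils carry, all 5 measured here (Ccl3, Ccl4, Ccl5, Ccl6 and Ccl9) had higher means in prednisolone mice, with a median difference of 0.37. Ccl3 (MIP-1 alpha) read 7.10, 6.57, 6.90 and 5.81 in prednisolone mice and 5.78, 5.93, 6.22 and 5.51 in vehicle mice. Prednisolone mouse 4 lay among the vehicle mice and the other 3 lay above them. The Ccl3 difference was 0.74 ± 0.27 (limma unadjusted p = 0.0263, adjusted p = 0.791). The receptor Ccr1 read 7.72, 6.70, 6.76 and 6.98 in prednisolone mice and 6.03, 6.44, 6.79 and 5.94 in vehicle mice. Of its prednisolone values, 2 lay above the vehicle maximum and the others just below it. The Ccr1 difference was 0.74 ± 0.26 (limma unadjusted p = 0.0211, adjusted p = 0.791). Without the 3 arrays of high epididymis score the difference was 0.53 for Ccl3 and 0.54 for Ccr1.

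Ccl6 and Ccl9 are rodent ligands that myeloid cells make in quantity. They were singled out after their values were seen. Ccl9 read 12.33, 11.60, 12.04 and 11.84 in prednisolone mice and 11.08, 11.68, 12.17 and 11.17 in vehicle mice. Ccl6 read 11.40, 10.43, 10.97 and 10.94 against 10.10, 10.78, 11.35 and 10.04. In both genes vehicle mouse 3 reached the upper end of the prednisolone range, and vehicle mice 1 and 4 were the lowest of all 8. Ccl9 differed by 0.43 ± 0.26 and Ccl6 by 0.37 ± 0.31 (limma adjusted p = 0.791 and 0.822). Without the 3 arrays of high epididymis score these were 0.14 and 0.04, and without vehicle mouse 3 they were 0.64 and 0.63.

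The macrophage score, the mean deviation of 10 marker genes from their 8-array means, was 0.45, -0.16, 0.26 and -0.08 in prednisolone mice 1 to 4 and -0.64, -0.04, 0.69 and -0.47 in vehicle mice 1 to 4. Vehicle mouse 3 had the highest score of all mice, and its Ccl9 and Ccl6 were the highest of the vehicle group, while its Ccl2 of 8.12 and Ccl7 of 7.07 lay inside the vehicle range and under those of vehicle mouse 2. Of the 10 macrophage markers, 9 had higher prednisolone means (56.4% of all genes did), with a median difference of 0.24, the same direction as Ccl2, Ccl3, Ccr1, Ccl6 and Ccl9. All 10 lay above the dim level and 0 of them stood at an unadjusted p under 0.05, where 5.61% of all genes stood. The 3 lowest macrophage scores, -0.64, -0.47 and -0.16, belonged to the 3 mice of high epididymis score. Differences of the macrophage markers without those arrays are not given here. In other lists, 7 of 8 adipocyte, 4 of 5 mesothelial and 1 of 6 endothelial markers had higher prednisolone means. In whole tissue, more cells of a type and more RNA per cell cannot be told apart, and the part of macrophage content in the chemokine differences was not tested.

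Ccl5 (RANTES), made by T cells, NK cells and many stimulated cells, spanned its whole range within the prednisolone group, from 9.73 in mouse 1 to 7.15 in mouse 3. The other prednisolone mice read 7.75 and 8.16, and vehicle mice read 7.71, 8.42, 8.66 and 7.94. The groups had the same centre, 8.20 ± 1.10 against 8.19 ± 0.44 (SD, n = 4 each). The difference of 0.01 ± 0.50 had a 95% interval from -1.12 to 1.15, and fits that left out prednisolone mouse 1 or 3 gave -0.50 and 0.36. Without the 3 arrays of high epididymis score it was -0.20. Ccl4 (MIP-1 beta), the neighbour of Ccl3 in the genome, averaged 6.45 and 6.44.

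Neutrophil chemoattractants of Cxcr1 and Cxcr2 had higher prednisolone means for all 4 genes, Cxcl1, Cxcl2, Cxcl3 and Cxcl5, with a median difference of 0.21, while Cxcr2 went the other way. Cxcl1 (KC) read 6.72, 6.34, 6.32 and 6.21 in prednisolone mice and 5.98, 6.19, 5.89 and 5.94 in vehicle mice. The groups were apart, by a margin as small as that between prednisolone mouse 4 and vehicle mouse 2. The Cxcl1 difference of 0.40 ± 0.13, a 1.32-fold ratio, had the lowest unadjusted p of the 54 genes (0.0119, limma adjusted p = 0.791), and it ran from 0.29 to 0.46 in fits without 1 mouse and was 0.38 without the 3 arrays of high epididymis score. Cxcl2 averaged 5.57 against 5.42, Cxcl3 3.69 against 3.65 and Cxcl5 5.43 against 5.16, and these 3 genes were dim. Cxcr2, the main receptor for them on neutrophils, read 5.50, 6.05, 5.82 and 5.74 in prednisolone mice and 6.09, 6.20, 6.27 and 5.85 in vehicle mice. Of the prednisolone mice, 3 lay below the vehicle range. The Cxcr2 difference was -0.32 ± 0.14 (limma unadjusted p = 0.0466, adjusted p = 0.791), and -0.55 ± 0.14 without the 3 arrays of high epididymis score. The prednisolone mean of Cxcr2, 5.78, lay below the dim level. Cxcr1 averaged 6.06 and 5.94. Neutrophil markers gave scores from -0.26 to 0.21 in prednisolone and from -0.18 to 0.29 in vehicle mice. Of these 6 markers, 3 were dim (S100a9, Ly6g and Retnlg), and the part of neutrophil content was not tested.

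The upstream sequences of Cxcl1, Cxcl2 and Cxcl3 are shown because these paralogous neighbours share a kappaB-like stretch. They are the 100 bases before the gene start, 5′ to 3′ on the plus strand, from RefSeq on GRCm38.p6. Capitals mark the match to GGANTTTCC, a form of the kappaB element that NF-kB binds.
Cxcl1, chr5:90891145-90891244: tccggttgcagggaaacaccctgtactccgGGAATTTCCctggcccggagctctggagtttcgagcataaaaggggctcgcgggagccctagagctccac
Cxcl2, chr5:90903799-90903898: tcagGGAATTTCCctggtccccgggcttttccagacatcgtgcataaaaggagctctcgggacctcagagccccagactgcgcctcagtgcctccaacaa
Cxcl3, chr5:90786001-90786100: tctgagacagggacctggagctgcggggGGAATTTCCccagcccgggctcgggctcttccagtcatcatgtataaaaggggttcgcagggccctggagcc
The match begins 70 bases before the start of Cxcl1, 96 before that of Cxcl2 and 72 before that of Cxcl3, and all 3 carry the same letters, GGAATTTCC. Windows of 250 bases upstream were at hand for 40 of the 54 genes. Ccl2, Ccl7 and Ccl26 were among the genes without a window, so no motif was searched in them. GGANTTTCC, searched on both strands, occurred in 5 of the 40 genes, the other 2 being Ccr3 and Cxcl10, and in 1.07% of all 32851 windows. With a further G in front it occurred in 4 of them, without Cxcl10, and in 0.356% of all windows. With the match in common, the differences were 0.40 for Cxcl1, 0.15 for Cxcl2 and 0.04 for Cxcl3.

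The core letters of the glucocorticoid response element, ACANNNTGT, which the receptor binds as a dimer, occurred in 2 of the 40 genes and in 5.84% of all windows. The 2 were Cxcl1 and Ccr3. In Cxcl1 they are ACACCCTGT, 85 bases before the start and just ahead of the kappaB letters in the stretch shown. The full palindrome, AGAACA and its reverse complement 3 bases apart, occurred in 0 of the 40 genes, Cxcl1 included, and in 0.00913% of all windows. The AP-1 element TGANTCA occurred in 4 of the 40 (Ccl9, Ccr3, Ccr4 and Cxcl10) and in 6.75% of all windows. These are matches of letters and not bound sites.

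The ligands of Cxcr3, a receptor of activated T and NK cells, are Cxcl9, Cxcl10 and Cxcl11, which interferon gamma induces. Cxcl9 (MIG) had the lowest difference of the 54 genes and the widest spread, and was singled out after its values were seen. It read 10.51, 8.94, 7.70 and 9.77 in prednisolone mice and 8.88, 10.21, 10.19 and 9.93 in vehicle mice. Prednisolone mouse 1 was the highest and prednisolone mouse 3 the lowest of all 8, and the means of 9.23 ± 1.21 and 9.80 ± 0.63 (SD, n = 4 each) differed by -0.57 ± 0.57 (95% interval -1.87 to 0.73, limma adjusted p = 0.842). That difference was -0.06 without prednisolone mouse 3, -0.87 ± 0.75 without the 3 arrays of high epididymis score, and below 0 in every other fit. Cxcl10 (IP-10) read between 6.39 and 6.74 in prednisolone mice and between 6.03 and 6.94 in vehicle mice, a difference of 0.10 ± 0.18. Its sign was -0.06 without vehicle mouse 1 and -0.17 without the 3 arrays of high epididymis score. Cxcl11 averaged 6.02 and 5.98. The receptor Cxcr3 averaged 6.38 and 6.33, with a 95% interval of the difference from -0.21 to 0.31. Its sign turned to -0.06 without the 3 arrays of high epididymis score.

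The 140 bases before the starts of Cxcl9 and Cxcl10, both on the minus strand of GRCm38.p6 per RefSeq, are shown because these genes answer to the same interferon and differed in how widely they spread between mice. They are given 5′ to 3′ along the gene, and capitals mark GGGNNTTCC, another form of the kappaB element, which cannot match the very same bases as the form above.
Cxcl9, chr5:92328080-92328219: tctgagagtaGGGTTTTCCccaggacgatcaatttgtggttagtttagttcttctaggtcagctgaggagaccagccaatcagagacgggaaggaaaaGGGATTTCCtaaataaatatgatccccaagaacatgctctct
Cxcl10, chr5:92348890-92349029: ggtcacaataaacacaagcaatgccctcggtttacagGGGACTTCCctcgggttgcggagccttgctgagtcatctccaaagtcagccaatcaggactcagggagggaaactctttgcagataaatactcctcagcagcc
Cxcl9 holds 2 matches, 130 and 42 bases before its start, and Cxcl10 holds 1, at 103 bases. This form occurred in 7 of the 40 genes (Ackr1, Ackr4, Ccl20, Ccl9, Ccr6, Cxcl10 and Cxcl9) on either strand, and in 4.98% of all windows. The interferon response element GAAANNGAA occurred upstream of Cxcl9, at 175 bases, and of Cxcl10, at 213 bases, both outside the stretches shown. It was in 7 of the 40 genes and in 7.13% of all windows. With a further A behind it was in 2 of them, Cxcl10 and Cxcl14, and in 2.98% of all windows. Over the 8 mice the values of Cxcl9 spanned 2.81 and those of Cxcl10 spanned 0.91 on the log2 scale.

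Prednisolone mouse 3 was lowest of all 8 mice for 8 of the 33 ligands and 3 of the 21 receptors, and prednisolone mouse 1 was highest for 13 ligands and 6 receptors. How often each mouse was highest or lowest over all genes was not counted, so these counts are not particular to chemokine genes. Among the genes lowest in prednisolone mouse 3 were Ccl5, Ccl8, Ccl11, Cxcl9, Cxcl12 and Ccr2, listed after their values were seen. The same mouse had the lowest T and NK cell score, -0.29 against -0.16 to 0.36 in the other prednisolone mice, and the lowest dendritic cell score, -0.26 against 0.08 to 0.15. Low scores in prednisolone mouse 3 were not confined to these cells. Its mast cell and eosinophil score (-0.31) was the lowest of all 8 mice. Its endothelial (-0.33) and adipose progenitor (-0.16) scores were the lowest of its group, while its neutrophil score (0.21) was the highest of its group. Among vehicle mice, mouse 1 was lowest of all 8 mice for 9 ligands and 5 receptors. The median ligand deviation from the 8-array mean was 0.25, 0.05, 0.01 and 0.03 in prednisolone mice 1 to 4 and -0.31, 0.03, 0.00 and -0.11 in vehicle mice 1 to 4. The receptor medians were 0.14, -0.07, -0.09 and 0.13 against -0.16, 0.04, 0.16 and -0.09. The ligand medians of vehicle mice 2 and 3 lay among those of prednisolone mice 2 to 4, or just under them, and the receptor medians of the groups covered each other. Of the 8 T and NK cell markers, 4 were dim (Cd3d, Cd3g, Cd8a and Klrb1c), and the part of lymphocyte content in these spreads was not tested.

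**Figure D3:**
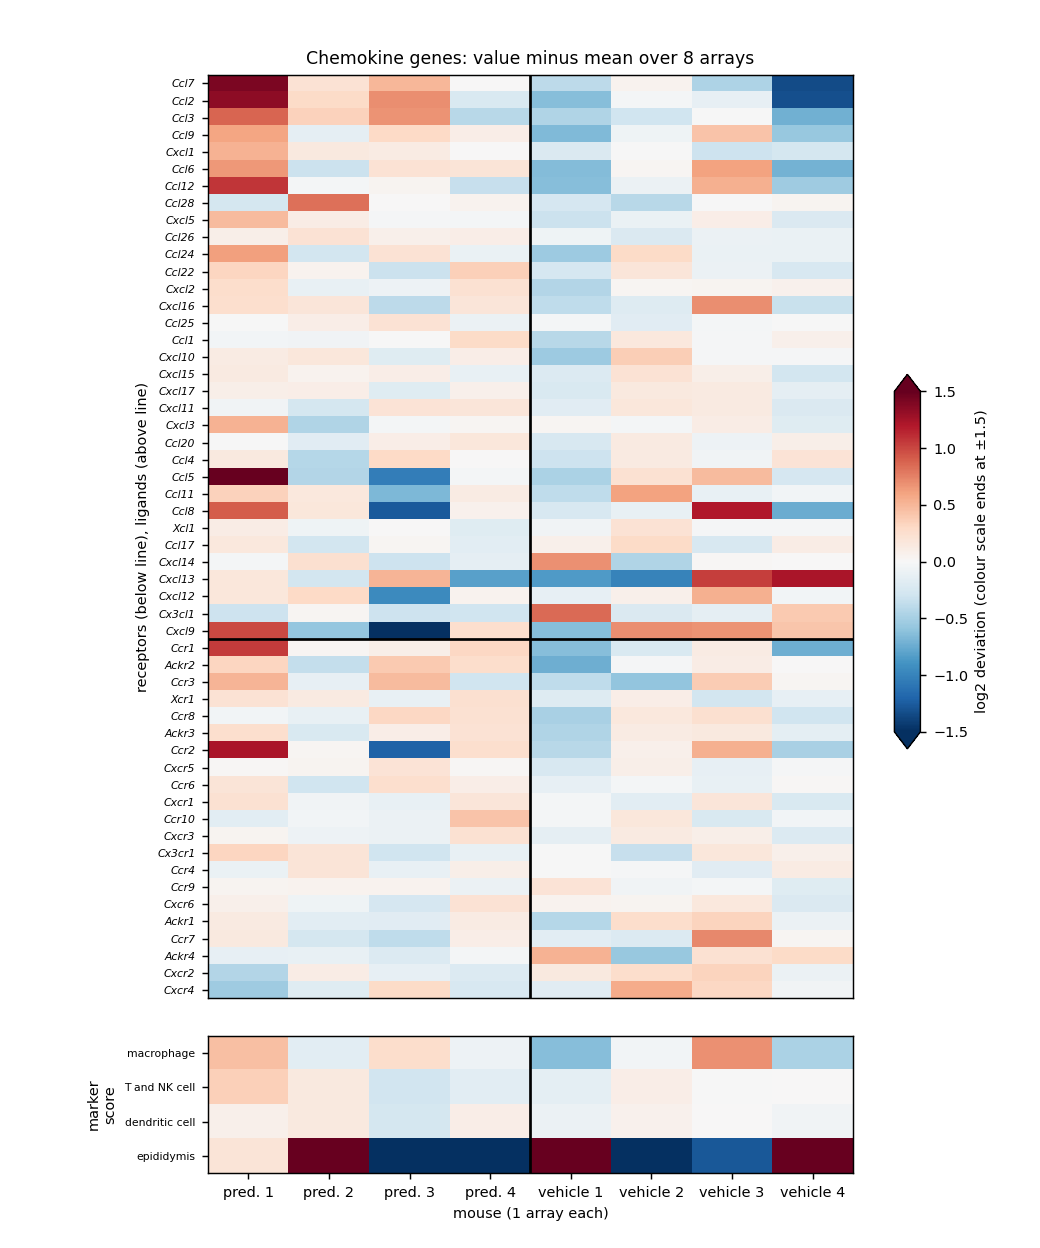
Deviation of each chemokine gene from its mean over 8 arrays (log2, colour; scale ends at ±1.5) for the 8 mice, ligands above the line and receptors below, each ordered by the group difference, with 4 marker scores underneath. Prednisolone mouse 1 is high for the CC ligands at the top, prednisolone mouse 3 is low for Cxcl9, Ccl8 and Ccl5, and vehicle mouse 4 is lowest for Ccl2 and Ccl7. Epididymis markers are high in vehicle mice 1 and 4 and prednisolone mouse 2.

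Eosinophil ligands of Ccr3 showed 1 of the 2 separated genes. Ccl26 (eotaxin-3) read 5.44, 5.57, 5.43 and 5.45 in prednisolone mice and 5.29, 5.13, 5.26 and 5.25 in vehicle mice. The groups were apart, yet the gene was dim on every array and the difference of 0.24 ± 0.08 was small (limma unadjusted p = 0.0134, adjusted p = 0.791). It was 0.24 ± 0.11 without the 3 arrays of high epididymis score. Ccl11 (eotaxin-1), which stromal cells make, averaged 9.51 and 9.54, and its difference of -0.02 ± 0.27 was 0.20 without prednisolone mouse 3 and -0.31 ± 0.35 without the 3 arrays of high epididymis score. Ccl24 (eotaxin-2), a product of macrophages, averaged 8.23 and 8.00. Ccr3 was dim, at 4.12 and 3.84, and its difference was 0.28 ± 0.26, or 0.33 without the 3 arrays of high epididymis score. Among 6 mast cell and eosinophil markers, 3 were dim (Mcpt4, Siglecf and Prg2).

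Among homeostatic and stromal genes, Cxcl12 and its receptor Cxcr4 had lower means in prednisolone mice, with overlapping groups. Cxcl12 (SDF-1), the retention signal of stromal cells, read 9.68, 9.81, 8.56 and 9.56 in prednisolone mice and 9.39, 9.59, 10.04 and 9.47 in vehicle mice. Prednisolone mouse 3 stood apart below the other 7. The Cxcl12 difference of -0.22 ± 0.28 turned to 0.06 without that mouse, and was -0.55 ± 0.35 without the 3 arrays of high epididymis score. Cxcr4, its signalling receptor, averaged 7.94 ± 0.34 and 8.26 ± 0.33 (SD, n = 4 each), a difference of -0.32 ± 0.21 (limma unadjusted p = 0.16, adjusted p = 0.791). The Cxcr4 difference was -0.59 ± 0.25 without the 3 arrays of high epididymis score and -0.41 with that score as a covariate (limma unadjusted p = 0.0379, adjusted p = 0.776). Ackr3, which scavenges Cxcl12, averaged 8.08 and 7.92 (0.16 ± 0.16, or 0.05 without the 3 arrays of high epididymis score). Cxcl14, an epithelial and adipose chemokine, averaged 7.70 and 7.83, and its highest value, 8.45, was in vehicle mouse 1. Its difference of -0.13 ± 0.23 was 0.08 without that mouse and 0.06 without the 3 arrays of high epididymis score.

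Cx3cl1 (fractalkine) is anchored to the membrane of epithelium and endothelium and binds Cx3cr1 on monocytes and macrophages. It read 6.49, 6.83, 6.49 and 6.50 in prednisolone mice and 7.65, 6.58, 6.67 and 7.19 in vehicle mice. The 3 highest values were in the 3 mice of highest epididymis score, vehicle mice 1 and 4 and prednisolone mouse 2. The Cx3cl1 difference of -0.44 ± 0.23 (limma unadjusted p = 0.0867, adjusted p = 0.791) was -0.23 without vehicle mouse 1 and -0.13 ± 0.11 without all 3 of those arrays. With the epididymis score as a covariate it was -0.33 ± 0.13 (limma unadjusted p = 0.037, adjusted p = 0.776). The part of epididymis RNA in this difference was not tested. Cx3cr1 averaged 7.24 and 7.19, a difference of 0.05 ± 0.16 whose sign turned in the fit without prednisolone mouse 1 (-0.05) and which was 0.06 without the 3 arrays of high epididymis score. Cxcl16, which macrophages carry on their surface, averaged 8.18 and 8.07 (0.11 ± 0.25), and -0.24 was found without the 3 arrays of high epididymis score. Its receptor Cxcr6 was dim.

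Among the chemokine genes of lymphoid tissue, the ligand differed widely between mice. With 4 mice a group, a group difference is neither shown nor excluded. Cxcl13, the B cell attractant of lymphoid clusters and of serous cavities, read 8.26, 7.81, 8.60 and 7.28 in prednisolone mice and 7.24, 7.09, 9.12 and 9.31 in vehicle mice. Vehicle mice 3 and 4 were about 2 log2 units above vehicle mice 1 and 2, so the vehicle group spanned the whole prednisolone range. The Cxcl13 difference was -0.21 ± 0.55 (95% interval -1.47 to 1.05), and leaving out vehicle mouse 3, vehicle mouse 4 or prednisolone mouse 4 gave 0.10, 0.17 and 0.03. It was -0.06 without the 3 arrays of high epididymis score. Its receptor Cxcr5 averaged 6.09 and 5.95. Ccr7, the homing receptor of naive T cells and mature dendritic cells, averaged 6.70 and 6.90, with 7.52 in vehicle mouse 3 as the highest value. The Ccr7 difference of -0.19 ± 0.22 was 0.02 without that mouse and -0.30 without the 3 arrays of high epididymis score. B cell markers gave scores from -0.26 to 0.14 in prednisolone and from -0.13 to 0.23 in vehicle mice.

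The atypical receptors were not alike. Ackr2, which degrades inflammatory CC ligands, Ccl2 among them, and was singled out after its values were seen, read 8.36, 7.68, 8.42 and 8.30 in prednisolone mice and 7.30, 8.02, 8.14 and 8.04 in vehicle mice. The low values of each group belonged to prednisolone mouse 2 and vehicle mouse 1, both of high epididymis score, while vehicle mouse 4, the third of high score, lay within its group. The Ackr2 difference was 0.32 ± 0.22 (limma adjusted p = 0.798). Leaving out vehicle mouse 1 or prednisolone mouse 2 gave 0.13 and 0.49, and it was 0.28 ± 0.11 without the 3 arrays of high epididymis score. Ackr1, the chemokine-binding protein of venules and red cells, averaged 6.52 and 6.56, and its difference of -0.03 ± 0.18 changed sign in 4 of the fits without 1 mouse and with array weights, and was -0.26 ± 0.14 without the 3 arrays of high epididymis score. Ackr4, a scavenger of homing chemokines, was dim at 5.57 and 5.80.

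The ligands Ccl17 and Ccl22 of the T cell receptor Ccr4 averaged 6.55 and 6.66, and 6.24 and 6.04. Ccl20, Ccl25 and Ccl28, known from mucosal surfaces, had means within 0.32 of each other between the groups, with Ccl28 the widest because prednisolone mouse 2 read 6.70 against 5.61 to 5.93 in the rest of that group. Their receptors Ccr6, Ccr9 and Ccr10, and Ccr4 and Ccr8, were dim. Xcl1, a product of NK and CD8 T cells, averaged 5.82 and 5.89, and its receptor Xcr1, a marker of cross-presenting dendritic cells, was dim at 5.41 and 5.17. Cxcl15 was dim and Cxcl17 averaged 6.29 and 6.24.

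Chemokine genes lie in runs that arose by duplication, and the differences within a run were unequal in size. Gene order was taken from the RefSeq table of GRCm38.p6, in which 25 of the 54 genes fell into 5 runs of at least 3 genes with at most 10 other protein-coding genes between neighbours. In the run Ccl2, Ccl7, Ccl11, Ccl12, Ccl8 and Ccl1 the differences were, in that order, 1.05, 1.07, -0.02, 0.36, -0.06 and 0.10. The high pair are next to each other and the third gene, Ccl11, lay near 0. In the run Ccl5, Ccl9, Ccl6, Ccl3 and Ccl4 they were 0.01, 0.43, 0.37, 0.74 and 0.01. In the run Cxcl5, Cxcl3, Cxcl15, Cxcl1 and Cxcl2 all were higher, at 0.27, 0.04, 0.09, 0.40 and 0.15. In the run Ccl22, Cx3cl1 and Ccl17 they were 0.20, -0.44 and -0.12. In the receptor run Ccr9, Cxcr6, Xcr1, Ccr1, Ccr3 and Ccr2 they were 0.03, -0.02, 0.24, 0.74, 0.28 and 0.14. Related sequences within these runs can share probes, and how far probes of Ccl2, Ccl7 and Ccl12 were shared was not tested.

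**Figure D4:**
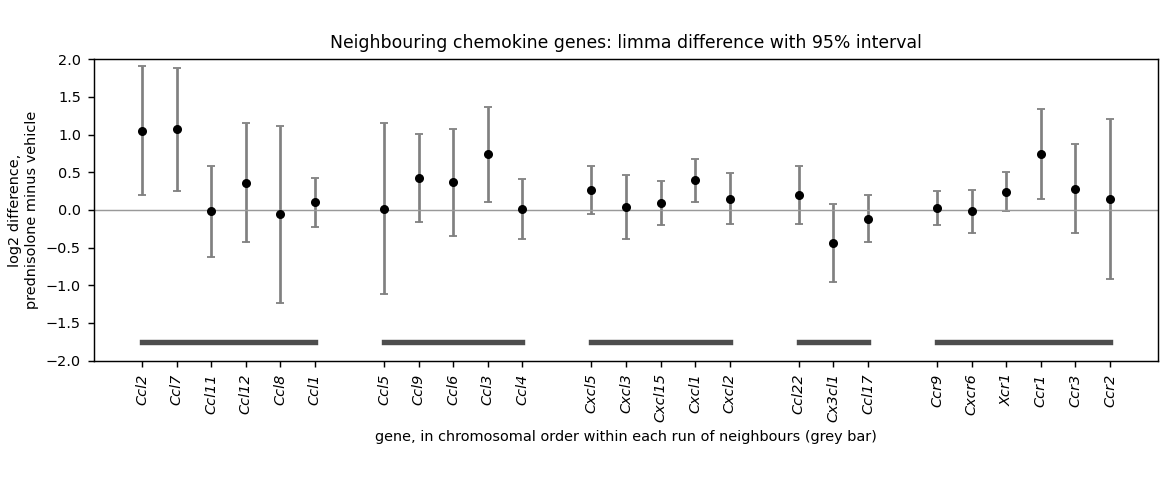
Limma difference (prednisolone minus vehicle, log2 scale) with 95% interval for the 25 chemokine genes in 5 runs of neighbours, in chromosomal order; spacing is by rank and not by distance. Ccl2 and Ccl7 stand side by side near 1 while their neighbour Ccl11 is near 0.

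Genes around chemokine signalling were read from 3 further lists. Of 26 measured transducers of chemokine receptors, 0 passed the adjusted threshold, 3 stood higher and 1 lower at an unadjusted p under 0.05 (all genes: 3.51% higher and 2.1% lower), and the median difference was 0.08. Rgs1, which shuts off the G proteins of chemokine receptors in leukocytes, read 6.17, 6.09, 6.65 and 6.29 in prednisolone mice and 5.29, 5.37, 5.42 and 5.36 in vehicle mice. The groups were well apart, with vehicle mice inside a narrow band and below the dim level. The Rgs1 difference was 0.94 ± 0.12 (limma unadjusted p = 4.3e-05, adjusted p = 0.791). Ptk2b, the Pyk2 kinase, differed by 0.59 ± 0.13 and Elmo1, a partner of Dock2 in Rac activation, by -0.36 ± 0.11, both with groups apart and an adjusted p of 0.791 in limma. These 3 were named for having the lowest p of the list. Groups were apart for 11.5% of the 26 transducers, against 3.25% of all genes. For genes of the 3 further lists, differences without the 3 arrays of high epididymis score are not given.

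Of 18 measured genes of the NF-kB pathway and of chemokine mRNA decay, 0 passed, 2 stood higher and 1 lower at an unadjusted p under 0.05, against the same 3.51% and 2.1% of all genes, and the median difference was 0.12. Il1rn, the interleukin 1 receptor antagonist, differed by 0.63 ± 0.25 and Tnf by 0.29 ± 0.12. Nfkbia, the inhibitor of NF-kB that glucocorticoids can induce, averaged 9.42 in prednisolone and 9.88 in vehicle mice (-0.47 ± 0.20). Each had a limma adjusted p of 0.791 and overlapping groups. Of 6 measured relatives outside the symbol rule, 0 stood at an unadjusted p under 0.05, where 5.61% of all genes stood, so with 6 genes the count says little. The lowest p among them belonged to Ccl27a (-0.16 ± 0.10), Cmklr1, a chemerin receptor (-0.27 ± 0.18), and the platelet chemokine Ppbp (0.11 ± 0.22).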

How the data were processed

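The deposited log2 values are RMA expression values that the authors made with Affymetrix Expression Console, per the labels, with Partek 6.6 also named in the submitters' processing notes. RMA corrects background, equalises array distributions and compresses differences at low signal. The build used by the authors is not given in the sources used here.

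Of 41345 probe sets, 23521 had 1 gene symbol in the platform annotation and were used, and a gene with several was represented by its brightest one (mean over 8 arrays), giving 22180 genes. Symbols matched the RefSeq table by Entrez identifier for 23328 probe sets, and 0 changed. Probe sets with several symbols were not used, and 13 of them held a chemokine symbol of the rule. Ccl19 had no probe set with 1 symbol and was not analysed here.

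Groups were compared in limma 3.58.1 under R 4.3.3 (lmFit, eBayes, no block), two-sided, with Benjamini-Hochberg adjustment over all 22180 genes and a threshold of 0.05, dim genes kept. On simulated arrays with 200 changed genes this recovered 37% of 1.5-fold, 75.6% of 2-fold and 94.9% of 4-fold changes, and 2.65% of calls were false. The changed genes were drawn from all genes, and noise was drawn for each gene independently. The median residual SD was 0.18 over all genes, 0.36 over ligands and 0.25 over receptors. These shares therefore do not describe the chemokine genes, for which recovery was not measured. The number of arrays limits the precision.

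Differences were printed for chemokine genes with an unadjusted p under 0.05, with groups apart, or among 24 fixed genes, of which 22 were measured. This gave 25 genes, and 4 more were singled out after their values were seen. From each further gene list the 3 members of lowest p were named. The genes and lists were chosen with earlier results of these data known. Alternatives changed the dim filter, normalization, probe set choice, variance model, array weights, replicate block and epididymis arrays, and left out each mouse. The kappaB, glucocorticoid and interferon letters searched upstream were shortened after a search with longer forms had been seen, and both are given. The labels call the replicates biological. Same-numbered mice deviated together with correlations of -0.14, -0.49, 0.11 and -0.23, so the numbers were not taken as pairs. Figures were drawn with matplotlib 3.10.9.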

Additional observations from a re-analysis of the deposited data

Results flagged for a closer look

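In 14 of 134 groups of 4 values examined (the 54 genes and 13 list summaries in each group), the highest or lowest mouse stood far from the other 3. Chance gives about 1 in 20. Of these, 12 concerned chemokine genes.

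Ackr2 was low in prednisolone mouse 2, at 7.68 against 8.30 to 8.42 in the rest of its group, and in vehicle mouse 1, at 7.30 against 8.02 to 8.14. Cx3cl1 was high in prednisolone mouse 2 (6.83 against 6.49 to 6.50), and so was the dim gene Ccl26 (5.57 against 5.43 to 5.45). Cxcl2 was low in vehicle mouse 1 (5.05 against 5.53 to 5.56). These mice had high epididymis scores.

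Prednisolone mouse 3 was low for Cxcl16 (7.73 against 8.30 to 8.37), Cxcl17 (6.09 against 6.35 to 6.37) and the dendritic cell score (-0.26 against 0.08 to 0.15), and high for Cxcr5 (6.22 against 6.04 to 6.06). Prednisolone mouse 4 was high for Ccl1 (5.97 against 5.63 to 5.67) and low for Ccr9 (4.93 against 5.06 to 5.08). Vehicle mouse 2 was low for Ccl25 (6.62 against 6.77 to 6.79) and high for Xcl1 (6.07 against 5.80 to 5.84). The ligand median of prednisolone mouse 1 was 0.25 against 0.01 to 0.05.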

How the results depend on the processing

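Under all 17 alternatives 0 of all genes and 0 chemokine genes passed the adjusted threshold, and the lowest adjusted p of a named chemokine gene was 0.515. The number of chemokine genes at an unadjusted p under 0.05 was 2 without the 3 arrays of epididymis score over 1, when 3.81% of all genes stood there, and between 4 and 10 without 1 mouse, when 3.22% to 9.46% of all genes did (8.02% where it was 10). It was 5 with the replicate block (3.69% of all genes), in which the number of the label was a block, and 0 of the 4 prednisolone mice correlated best with the vehicle mouse of their own number. The ligand median, 0.10, ran from 0.03 to 0.20 and the receptor median, 0.07, from 0.05 to 0.11 over all alternatives. Of 29 genes whose differences were printed, 16 kept their direction in every setting, Ccl2, Ccl7, Ccl3, Ccr1, Cxcl1, Ccl26 and Cxcr2 among them. The other 13 changed sign in at least 1. With array weights the difference was 0.03 for Ackr1, 0.05 for Ccl11 and 0.32 for Ccl8. With the epididymis score as a covariate it was -0.03 for Ccl5. Without the 3 arrays of high score it was -0.20 for Ccl5, -0.22 for Ccr2, -0.17 for Cxcl10, 0.06 for Cxcl14, -0.24 for Cxcl16 and -0.06 for Cxcr3. Without 1 mouse the ranges were -0.18 to 0.07 for Ackr1, -0.16 to 0.20 for Ccl11, -0.50 to 0.36 for Ccl5, -0.37 to 0.35 for Ccl8, -0.24 to 0.57 for Ccr2, -0.30 to 0.02 for Ccr7, -0.05 to 0.16 for Cx3cr1, -0.06 to 0.24 for Cxcl10, -0.36 to 0.06 for Cxcl12, -0.57 to 0.17 for Cxcl13, -0.30 to 0.08 for Cxcl14, 0.00 to 0.36 for Cxcl16 and -0.02 to 0.10 for Cxcr3. The cause of these changes was not tested. The 16 dim genes lie where RMA compresses differences.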
